A study of Mus musculus with 6 samples.

Results

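The ephrin ligands are the 8 mouse genes *Efna1*, *Efna2*, *Efna3*, *Efna4*, *Efna5*, *Efnb1*, *Efnb2* and *Efnb3*, chosen by gene family among the 50686 gene identifiers of the count files. All 8 were found and all 8 had enough reads to be tested. RNASeq was available for 2 cultures of NSC, neural stem cells of wild-type mouse embryos taken at E16.5, and for 2 cultures of NSC Bmi1Over, from embryos of the same age with the genotype STOPFloxBmi1;NestinCre, in which Cre driven by *Nestin* removes a stop cassette in front of a *Bmi1* transgene. Both kinds of culture were isolated from the subventricular zone of the cerebral hemispheres and kept in EGF and b-FGF, as spheres or as an adherent layer, and the form used for these libraries is not given in the sources used here. H3K27me3, the histone mark deposited by the Polycomb complex PRC2, was measured by ChIPSeq. Per the study's methods, 2 replicates of each genotype were immunoprecipitated and the weaker one was set aside, in part for its number of reads, so that the peak list of each genotype comes from 1 library. The mGIC samples of the study were not analysed here.

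Ephrins are ligands that stay on the cell surface and bind Eph receptor tyrosine kinases on the neighbouring cell. The ephrin-A proteins are held in the membrane by a GPI anchor, whereas the ephrin-B proteins cross it and have a cytoplasmic tail. Binding signals forward into the receptor cell and in reverse into the ligand cell, and in the developing brain this contact is known for guiding axons, for setting boundaries and for regulating neural progenitors. H3K27me3 over a promoter is known to accompany silencing, most often at promoters rich in CpG dinucleotides.

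The reference sequences that follow are from ligands with and without a peak of this mark near them. The first is the start of *Efna5*, the ligand with the broadest peak, and the second is that of *Efnb2*, a ligand with no peak near it. The third is the short NSC peak upstream of *Efnb1*. The first and second are RefSeq promoter windows of the GRCm38.p6 build, with 250 bases before and 50 after the start of the transcript, and the third was read from the same build. Capitals mark CpG dinucleotides, and all 3 are printed 5′ to 3′.
*Efna5* promoter, chr17:62881268-62881567, minus strand: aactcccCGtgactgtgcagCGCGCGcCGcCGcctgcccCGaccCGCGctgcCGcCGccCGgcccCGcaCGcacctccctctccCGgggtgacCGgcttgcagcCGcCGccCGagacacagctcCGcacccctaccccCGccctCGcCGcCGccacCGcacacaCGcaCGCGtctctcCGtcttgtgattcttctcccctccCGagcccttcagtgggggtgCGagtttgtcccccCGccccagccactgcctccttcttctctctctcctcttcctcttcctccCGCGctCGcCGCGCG
*Efnb2* promoter, chr8:8661193-8661492, minus strand: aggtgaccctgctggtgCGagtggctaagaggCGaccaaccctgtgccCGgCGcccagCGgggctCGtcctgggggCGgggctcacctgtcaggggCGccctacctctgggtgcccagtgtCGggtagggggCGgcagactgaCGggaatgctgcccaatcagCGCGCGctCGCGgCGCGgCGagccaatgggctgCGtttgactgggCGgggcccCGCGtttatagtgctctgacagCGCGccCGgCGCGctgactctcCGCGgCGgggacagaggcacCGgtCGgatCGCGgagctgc
*Efnb1* upstream NSC peak, chrX:99133908-99134107, plus strand: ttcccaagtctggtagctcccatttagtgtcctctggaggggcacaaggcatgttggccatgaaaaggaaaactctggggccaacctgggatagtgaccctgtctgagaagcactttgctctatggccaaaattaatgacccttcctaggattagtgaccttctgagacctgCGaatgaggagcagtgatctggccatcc

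RefSeq held a promoter window for 7 of the 8 ligands (all but *Efnb3*). All 7 had at least 10 CpG in 300 bases, as did 43.5% of the 32851 windows of all genes. *Efna5* had the most, with 38 CpG and a GC content of 73.3%. *Efnb2* followed with 35 CpG and *Efna2* with 31. *Efna4* had the fewest, with 11, against a median of 7 over all windows. The GC box, spelled GGGCGG and searched on both strands, was found in 5 of the 7 windows (35.7% of all windows) and the CCAAT box, spelled CCAAT, in 4 of the 7 (37.4% of all windows). *Efnb1* and *Efna4* were the ligands without GGGCGG. The sequence under the *Efnb1* upstream peak was of another kind, with 1 CpG in 200 bases.

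In the RNASeq libraries, between 18112100 and 61353076 reads were counted on genes. Levels are given as CPM, counts scaled to a common library size with the TMM factors of edgeR (trimmed mean of M-values). Of the 15521 genes tested with edgeR's quasi-likelihood test, 334 (2.15%) were called at a Benjamini-Hochberg adjusted p under 0.05, of which 315 (2.03%) were higher and 19 (0.122%) lower in NSC Bmi1Over. With library size as the only scaling the split was 346 higher and 191 lower, and the log2 fold change of the median gene shifted by -0.15. *Bmi1* itself was at 133.3 and 123.5 CPM in NSC and at 118.6 and 112.6 CPM in the libraries labelled NSC Bmi1Over, with a log2 fold change of -0.15 (SE 0.12, adjusted p = 0.463 from edgeR). If reads of the transgene are counted at *Bmi1*, this goes against the label. The sources used here do not say whether they are, and every direction below rests on the labels alone. The share of unmapped reads was 11.2% and 13.7% in NSC replicates 1 and 2, and 16.2% and 17.6% in NSC Bmi1Over replicates 1 and 2. The 12 neural stem cell markers summed to between 6194 and 6859 CPM over the 4 libraries, and 0 of them were called (3 at an unadjusted p under 0.05 in edgeR, all lower in NSC Bmi1Over). Only 3 of the 12 had a log2 fold change above 0, and their median was -0.24. Of the 7 neuronal markers tested 1 was called higher (*Syt1*), but only 2 of the 7 had a log2 fold change above 0, the median was -0.21, and *Gad1* was lower at an unadjusted p under 0.05. Of the 6 astrocyte markers 1 was called lower (*Aldh1l1*), 0 others passed an unadjusted p under 0.05, and 3 were above 0. Of the 8 oligodendrocyte lineage markers 6 were tested, and 0 of these were called by edgeR (0 at an unadjusted p under 0.05). The 2 NSC Bmi1Over libraries stood apart from each other here, with *Sox10* at 5 and 265 reads and *Pdgfra* at 16.5 and 44.5 CPM. Markers of mesenchymal cells, microglia, endothelial and erythroid cells reached at most 2.96 CPM for any gene. Each of these lists holds 6 markers, of which 1 mesenchymal, 1 microglial, 3 endothelial and 1 erythroid marker were tested. Of those tested 0 were called, and *P2ry12* and *Tek* were higher in NSC Bmi1Over at an unadjusted p under 0.05 in edgeR. The 6 endothelial markers, whose list holds *Tek*, *Flt1* and *Kdr*, summed to between 4.18 and 5.46 CPM in NSC and between 6.17 and 7.65 CPM in NSC Bmi1Over, with *Cldn5* at 0 reads in all 4 libraries, *Pecam1* at 1 to 24 reads and *Cdh5* at 0 to 4. The 6 microglial markers summed to between 1.30 and 1.98 CPM in NSC and between 2.46 and 3.10 CPM in NSC Bmi1Over, nearly all of it from *P2ry12*, at 40 and 44 reads in NSC and at 39 and 169 reads in NSC Bmi1Over. The other 5 microglial markers had 0 to 5 reads per library. The part of such cells in the values below was not tested. In such bulk libraries, fewer cells of a type and less RNA per cell cannot be told apart.

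Compared per length of the gene, the B class made up most of the ephrin ligand transcripts in these cultures. *Efnb2* stood at 16.0 ± 6.40 CPM per kb of merged exons and *Efnb1* at 15.6 ± 3.21 (SD over the 4 libraries for all such values here), and both exceeded every other ligand in each of the 4 libraries. The *Efnb2* and *Efnb1* proteins are the ligands of EphB receptors. Their order depends on the length used. Per kb of merged exons it cannot be told apart, since *Efnb1* was above *Efnb2* in the 2 NSC libraries and below it in the other 2. Per length of the longest transcript instead, *Efnb2* was above *Efnb1* in all 4 libraries, with means of 22.9 and 16.6 CPM per kb. Next came *Efna2* at 5.52 ± 0.470, *Efnb3* at 4.73 ± 1.34 and *Efna4* at 4.28 ± 1.26 CPM per kb, whose ranges overlapped. *Efna3* lay below these in all 4 libraries, at 1.72 ± 0.102 CPM per kb. *Efna3* and *Efna4* share exonic bases with other genes, and reads there are left out of their counts. Over exons shared with no other gene, their means were 2.00 and 4.78 CPM per kb. *Efna1* at 0.905 ± 0.192 and *Efna5* at 0.532 ± 0.241 CPM per kb were the lowest, with ranges that overlapped, although *Efna1* was above *Efna5* in each of the 4 libraries. Set among all protein-coding genes tested, *Efnb2* was at percentile 76.8 of the level per kb, *Efna2* at 47.4 and *Efna5* at 12.8.

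The 8 ligands summed to 35.1 and 44.6 CPM per kb in NSC and to 53.8 and 64.0 CPM per kb in NSC Bmi1Over. The 3 *Efnb* genes took 68.9% and 73.7% of that sum in NSC and 71.6% and 78.3% in NSC Bmi1Over, so these shares overlapped between the groups. The share of *Efnb2* was 25.6% and 30.0% in NSC and 33.0% and 37.5% in NSC Bmi1Over. *Efna5* took between 0.682% and 1.26%. These sums and shares are descriptions, with no test.

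**Figure D1:**
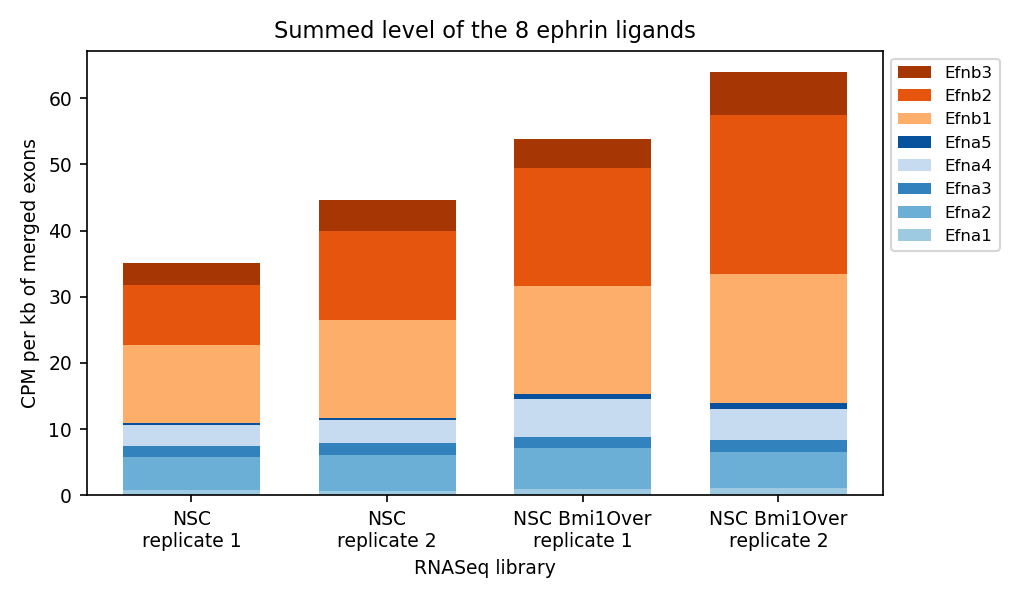
Stacked bars give the TMM-normalised level of each ephrin ligand, in CPM per kb of merged exons, for the 4 RNASeq libraries (1 bar per library, A class in blue, B class in orange). The sum runs from 35.1 in NSC replicate 1 to 64.0 in NSC Bmi1Over replicate 2, and the orange part is between 68.9% and 78.3% of each bar.

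Between the groups, 7 of the 8 ligands had a log2 fold change above 0, where 48.6% of all tested genes did, and 0 of the 8 were called by edgeR. At an unadjusted p under 0.05, 4 of the 8 were higher in NSC Bmi1Over (*Efna4*, *Efna5*, *Efnb1* and *Efnb2*) and 0 were lower, where 24.2% of all tested genes passed that limit and 17% were higher. DESeq2's Wald test called 1 of the 8, *Efnb2*, where it called 10.1% of the genes with an adjusted p. The count of ligands called was 1 with library size alone (background 3.46%) and 3 with no filter on low counts (8.25%). It was 5 with the replicate number as a block (22.3%), 1 without NSC replicate 2 (8.93%) and 4 without NSC Bmi1Over replicate 1 (15.6%), these being *Efna5*, *Efnb1*, *Efnb2* and *Efnb3*. The values of 6 ligands did not overlap between the groups, all 6 with both NSC Bmi1Over libraries above both NSC libraries, where 59% of all tested genes did not overlap and 29% did so with NSC Bmi1Over above. The median log2 fold change was 0.48 over the 8 ligands and -0.014 over all tested genes. With 2 cultures per group, the smallest two-sided p that an exact permutation test of a single gene could give is 0.333, so that no such test was made.

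*Efnb2*, the transmembrane ligand of EphB4 and of other EphB receptors, was at 61.6 and 91.9 CPM in the 2 NSC cultures and at 121.7 and 164.4 CPM in the 2 NSC Bmi1Over cultures. All 4 libraries were apart, and both NSC Bmi1Over libraries were above both of NSC. The log2 fold change was 0.90 (SE 0.21), with an adjusted p of 0.0642 from edgeR, just short of the threshold. It was not stable to the choice of libraries. Without NSC replicate 1 the log2 fold change was 0.64, and without NSC Bmi1Over replicate 2 it was 0.67. Without NSC replicate 2 it was 1.21 with an adjusted p of 6.6e-05 from edgeR, and without NSC Bmi1Over replicate 1 it was 1.10 with an adjusted p of 0.0142. Each of these 4 fits leaves 1 library in a group, which is then assumed to vary like the pair of the other group. Of the other 8 alternatives 4 passed the threshold, and over all 12 the adjusted p lay between 5.51e-07 and 0.26.

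*Efnb1*, the ligand encoded on the X chromosome, was at 40.9 and 51.1 CPM in NSC and at 56.7 and 67.4 CPM in NSC Bmi1Over. The groups did not overlap, but the step between the groups was narrower than that between the 2 cultures of either one. The log2 fold change was 0.44 (SE 0.15, adjusted p = 0.132 from edgeR). *Efnb1* and *Efnb2* thus ranked the 4 libraries in the same order, which is also the order of their unmapped shares given above, and the part of read quality in these differences was not tested. *Efnb3*, the third transmembrane ligand, was at 10.6 and 15.0 CPM in NSC and at 13.9 and 20.8 CPM in NSC Bmi1Over. Here the groups overlapped, and the log2 fold change of 0.47 (SE 0.23, adjusted p = 0.261 from edgeR) was 0.13 without NSC Bmi1Over replicate 2 and 0.71 without NSC Bmi1Over replicate 1 (adjusted p = 0.0396 from edgeR).

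Among the GPI-anchored ligands, the largest difference was that of *Efna5*, the ligand at the centre of the study, which was the least abundant of the 8 per kb. It had 45 and 31 reads in NSC and 47 and 185 reads in NSC Bmi1Over, or 1.43 and 1.23 CPM against 2.68 and 3.24 CPM. Its log2 fold change of 1.17 (SE 0.28, adjusted p = 0.0648 from edgeR) was the widest of the family, and its adjusted p was close to that of *Efnb2*. The reads behind it were far fewer than the 1945 to 9397 behind *Efnb2*.

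*Efna4* was at 4.91 and 5.54 CPM in NSC and at 9.31 and 7.61 CPM in NSC Bmi1Over. The groups did not overlap and the 2 NSC cultures were close together. The log2 fold change was 0.69 (SE 0.21, adjusted p = 0.0999 from edgeR). Of its 1599 exonic bases, 168 (10.5%) are shared with the antisense gene *4731419I09Rik*. Without strand the reads of the pair there cannot be told apart, and they are left out of its count as ambiguous. The sum of the stranded columns takes in the reads there of either gene. With the stranded columns summed, the log2 fold change stayed positive and 0 ligands were called.

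The other A-class ligands differed less. *Efna1* was counted at 1.52 and 1.23 CPM in NSC and 1.89 and 1.99 CPM in NSC Bmi1Over, from between 31 and 114 reads per library. Its log2 fold change was 0.50 (SE 0.29, adjusted p = 0.312 from edgeR), although the groups did not overlap. *Efna2* was at 10.6 and 11.6 CPM in NSC and at 13.1 and 11.7 CPM in NSC Bmi1Over, with a log2 fold change of 0.15 (SE 0.17, adjusted p = 0.591 from edgeR). Its NSC replicate 2 and NSC Bmi1Over replicate 2 were nearly level.

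*Efna3* was the only ligand of the 8 with a log2 fold change below 0 in edgeR, at 4.06 and 4.51 CPM in NSC and 3.94 and 4.23 CPM in NSC Bmi1Over. The groups overlapped, and the value of -0.059 (SE 0.22, adjusted p = 0.888 from edgeR) was 0.065 when the stranded columns were summed and 0.011 without NSC replicate 2. Of its 2434 exonic bases, 344 (14.1%) are shared with the antisense gene *Gm15998*. It had between 69 and 242 unstranded reads per library, but between 113 and 408 when the stranded columns were summed. In mm10, chromosome 3 holds *Efna1*, *Efna3* and *Efna4* next to each other on its minus strand, within 66296 bp from 89271733 to 89338028. Their log2 fold changes were 0.50, -0.059 and 0.69, and the differences between them were not tested.

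**Figure D2:**
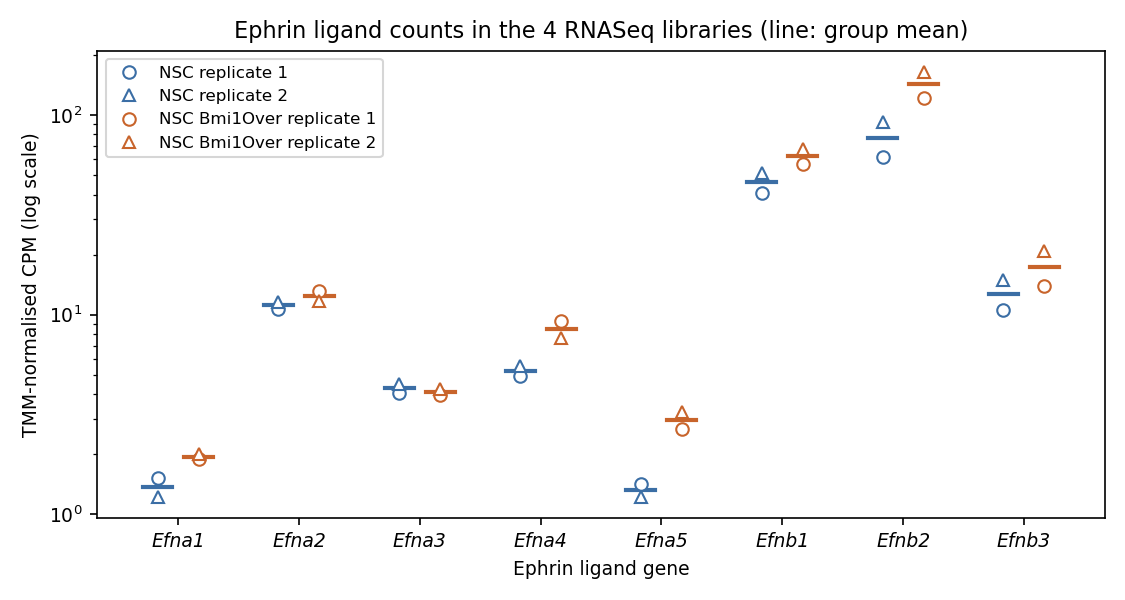
Points give the TMM-normalised CPM (log scale) of each ephrin ligand in the 2 NSC (blue) and 2 NSC Bmi1Over (orange) libraries, circles for replicate 1 and triangles for replicate 2, and lines give the group means. The orange points lie above the blue ones for 6 ligands, while those of *Efna3* and *Efnb3* overlap.

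To place each ligand among the other genes, its pattern over the 4 libraries was compared with those of 13315 protein-coding genes by the root mean square difference of log2(CPM + 0.5), after each gene was centred on its mean. *Sema4d*, a semaphorin, came nearest to *Efnb2*, at a difference of 0.0280, with 6.53 and 9.49 CPM in NSC and 12.7 and 17.4 CPM in NSC Bmi1Over. For *Efnb1* it was *Slc16a13*, at 0.00302, and for *Efnb3* it was *Plec*, at 0.0206. *Atrx* came nearest to *Efna2*, *Ncdn* to *Efna3* and *Tmc3* to *Efna4*, at differences between 0.00857 and 0.0172. *Efna5* had the least close neighbour, *Glycam1* at 0.0310, a gene at no more than 0.525 CPM in any library. Between 28 genes, for *Efna5*, and 2115 genes, for *Efna3*, lay within 0.1 of a ligand.

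The receptors of these ligands were measured in the same libraries. Of the 9 EphA receptors, 7 were tested and 1 was called higher, where 2.03% of all tested genes were. It was *Epha2*, at 3.68 and 4.07 CPM in NSC and at 9.14 and 9.34 CPM in NSC Bmi1Over, with a log2 fold change of 1.26 (SE 0.20, adjusted p = 0.0307 from edgeR). EphA2 is a receptor of ephrin-A1 and other ephrin-A ligands. Of the 5 EphB receptors, all 5 were tested and 1 was called higher (2.03% of all tested genes), *Ephb4*, at 24.5 and 24.2 CPM in NSC and 47.7 and 47.8 CPM in NSC Bmi1Over (log2 fold change 0.97, SE 0.12, adjusted p = 0.0132 from edgeR). EphB4 is known as the receptor most selective for ephrin-B2. Both receptors had little spread within a group and passed the threshold in the 8 alternatives that keep all 4 libraries. They also passed in the 4 that leave out 1 library, where the spread comes from the other group alone.

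Per kb of merged exons, the most abundant EphA receptor was *Epha5* at 9.80 CPM per kb, followed by *Epha4* at 1.79 and *Epha2* at 1.40, as means over all 4 libraries. The third place depends on this pooling, since *Epha7*, at 1.24 over all 4, was above *Epha2* in the NSC mean. Of the EphB receptors it was *Ephb3* at 12.6 CPM per kb, followed by *Ephb4* at 7.77 and *Ephb1* at 6.01, which cannot be told apart from *Ephb6* at 5.99. The second place did not hold in every library, since *Ephb1* was above *Ephb4* per kb in NSC replicate 2. *Epha5*, with the highest level of the EphA receptors, had a log2 fold change of 0.14 (SE 0.13, adjusted p = 0.511 from edgeR). The median log2 fold change was 0.68 over the 7 EphA receptors tested and 0.54 over the 5 EphB receptors, against -0.014 over all tested genes. Each of these 12 receptors had a value above 0, where 48.6% of all tested genes did.

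**Figure D3:**
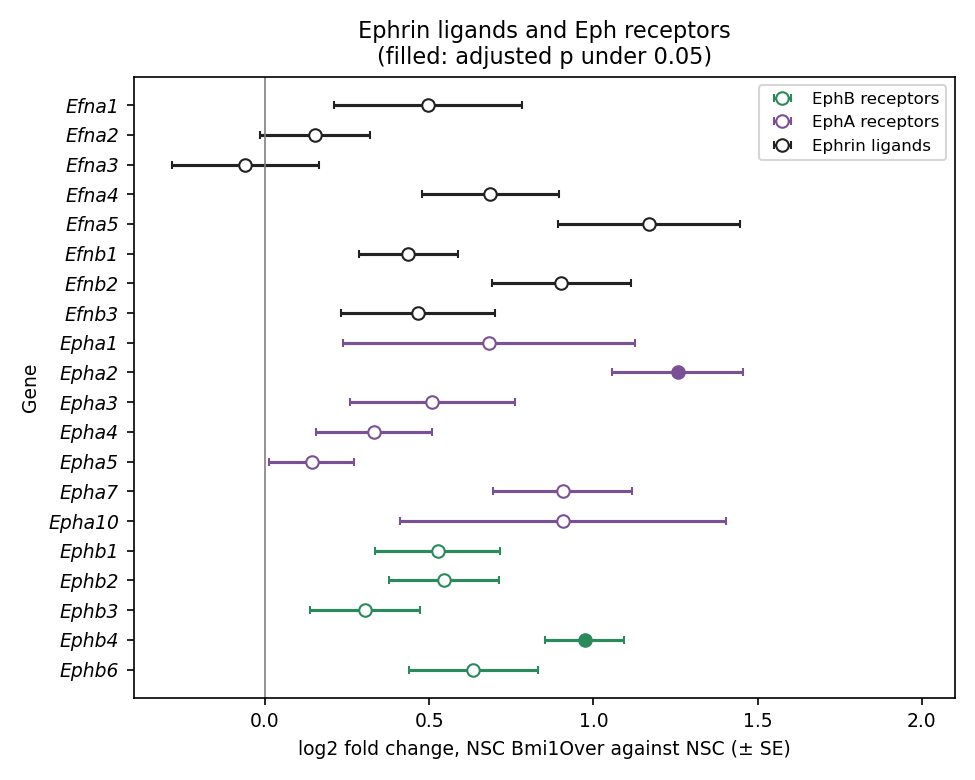
The log2 fold change of NSC Bmi1Over against NSC with its standard error is plotted for the 8 ephrin ligands (black), 7 EphA receptors (purple) and 5 EphB receptors (green), with filled points for an edgeR adjusted p under 0.05. The 2 filled points are *Epha2* at 1.26 and *Ephb4* at 0.97, and *Efna3* at -0.059 is the only gene left of 0.

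Beyond ligands and receptors, the partners of ephrin signalling were counted from lists. Of the 20 genes for reverse signalling and the processing of ephrins, 18 were tested. By edgeR 0 of these were called, where 2.15% of all tested genes were. DESeq2 called 3 of the list, where it called 10.1% of the genes with an adjusted p. At an unadjusted p under 0.05, 4 of the 18 were higher and 2 lower, where 17% of all tested genes were higher and 24.2% passed in either direction. Among the higher genes, named after their values had been seen, were *Adam10*, a protease that cleaves ephrin-A ligands, *Ncstn*, a part of the protease complex that cleaves the membrane stub of ephrin-B, and *Nck2*, an adaptor that binds the ephrin-B tail. The 2 lower genes were *Nck1*, the paralogue of *Nck2*, with a log2 fold change of -0.44 against 0.48 for *Nck2*, and *Yes1*, a Src family kinase, with -0.43. *Adam10* was at 279.3 and 366.6 CPM in NSC and at 486.4 and 576.1 CPM in NSC Bmi1Over (log2 fold change 0.72, SE 0.19, adjusted p = 0.0762 from edgeR). Of the 28 genes for forward signalling, such as exchange factors of small GTPases and kinases, 27 were tested. None of the list was called by edgeR (2.15% of all tested genes) or by DESeq2 (10.1%). In edgeR, 2 were higher and 1 lower at an unadjusted p under 0.05, where 24.2% of all tested genes passed. Both lists hold *Nck1*, *Nck2*, *Fyn* and *Src*. *Nck2* was thus 1 of the 2 higher genes in the forward list too, and *Nck1* was its 1 lower gene. The median log2 fold change was -0.097 over the reverse list and -0.074 over the forward list.

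In the H3K27me3 peak lists, 3 of the 8 ligands had a peak within 5 kb of a transcription start site (TSS) in NSC (*Efna3*, *Efna5* and *Efnb1*), where 8.86% of all protein-coding genes did. In NSC Bmi1Over, a promoter peak was called at 1 of the 8 (*Efna5*), where 4.39% of all protein-coding genes did. A peak inside the gene was called at *Efna3* and *Efna5* in NSC (8.75% of protein-coding genes) and at *Efna5* in NSC Bmi1Over (4.6%). Each list came from 1 library, so that no difference between them could be set against replicates. The lists hold no read depth. The study's methods give unequal read totals for the replicates without saying which were kept, and the part of depth in the 12982 NSC and 6810 NSC Bmi1Over peaks, and in peaks called in NSC alone, was not tested.

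The mark at the 3 genes was of unequal size. At *Efna5*, whose promoter sequence is given above, the widest NSC peak measured 5324 bp and spanned the TSS, with an enrichment of 6.19-fold over the background of the peak caller and a q value of 7.51 on the −log10 scale. It ranked 319 by length among the 12982 peaks of the list, and 3 shorter NSC peaks of 1115, 372 and 393 bp reached within 5 kb of a TSS of the gene. In NSC Bmi1Over, 3 peaks within 5 kb, of 526, 913 and 721 bp, all lay inside the span of this NSC peak and covered 40.6% of it. The nearest of them began 744 bp into the gene, so that the annotated start of the gene lay under a peak in the NSC list and not in the other. A further NSC Bmi1Over peak of 213 bp lay 220005 bp into the gene, in an intron. The GC content was 59.2% under that nearest peak, of 721 bp, and 36.7% and 35.8% under the other two.

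At *Efna3*, the NSC peak was 410 bp long, on chromosome 3 of mm10 from 89320525 to 89320934, in an intron. It was enriched 3.92-fold with a −log10 q of 2.51, lay 2031 bp from the annotated start of the gene and 697 bp from the nearest TSS, which belongs to a transcript that is not protein-coding, and held 24 CpG. At *Efnb1*, the NSC peak had the shortest length in the list, 200 bp, on chromosome X of mm10 from 99133908 to 99134107, in no part of the gene and 2023 bp upstream of its start. Its enrichment of 3.65-fold was at percentile 13.8 of the list, whose smallest value is 3.52. Under stricter limits, *Efna5* was the 1 ligand with an NSC promoter peak at a −log10 q of at least 3 (5.75% of protein-coding genes), at an enrichment of at least 5-fold (3.07%) and at a length of at least 1000 bp (3.9%). It was also the 1 ligand with an NSC peak inside the gene under these limits (5.95%, 3.15% and 3.81%). With a promoter window of 1 kb, *Efna3* and *Efna5* had an NSC peak (6.51%). At a length of at least 1000 bp, 0 ligands had a peak in NSC Bmi1Over, at the promoter (1.49%) or inside the gene (1.39%).

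The X chromosome held 3454 of the 12982 NSC peaks (26.6%) and 945 of the 6810 NSC Bmi1Over peaks (13.9%). Of the protein-coding genes on the X chromosome, 27.6% had a promoter peak in NSC, against 8.08% on the autosomes. In NSC Bmi1Over these were 8.86% and 4.22%. *Xist*, the RNA of the inactive X chromosome, was at 4265 to 5182 CPM in the 4 RNASeq libraries. The part of the X chromosome as a whole in the *Efnb1* peak was not tested.

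The other 5 ligands had no peak within 5 kb of a TSS in either list. The cluster of *Efna1*, *Efna3* and *Efna4* on chromosome 3 held 1 peak in NSC, that of *Efna3*, and 0 in NSC Bmi1Over, where the nearest peak was at least 491358 bp from the start of each of the 3 genes. The nearest NSC peak was 39383 bp from *Efna1* and 17094 bp from *Efna4*. It was 165164 bp from *Efna2* and 191480 bp from *Efnb3*. *Efnb2*, among the most abundant ligands, lay farthest from any peak among the 8, since the nearest NSC peak was at 1108743 bp and the nearest NSC Bmi1Over peak at 3063968 bp from its start. Its promoter was nearly as rich in CpG as that of *Efna5*, as the sequences above show, with 35 against 38.

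**Figure D4:**
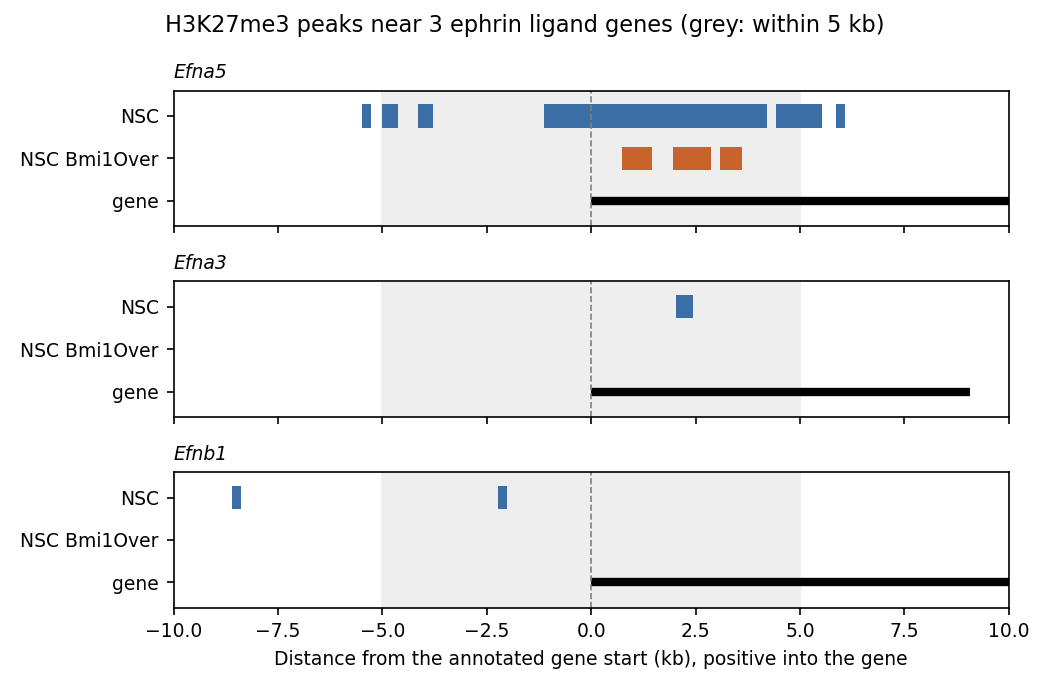
Bars give the H3K27me3 peaks of NSC (blue) and NSC Bmi1Over (orange) by distance in kb from the annotated start of *Efna5*, *Efna3* and *Efnb1*, positive into the gene, with the gene as a black line and the window of 5 kb in grey. The 5324 bp NSC peak of *Efna5* spans the start, its 3 NSC Bmi1Over peaks begin 744 bp inside the gene, and *Efna3* and *Efnb1* have short peaks in NSC alone.

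Levels and marks did not follow 1 order over the 8 ligands. *Efna5* had the broadest mark and the lowest level per kb, and *Efnb2* had no peak near it and one of the highest levels. *Efnb1*, however, had a peak within 5 kb in NSC and a level close to that of *Efnb2*, and *Efna1*, with no peak, was next to *Efna5* at the low end. Of the genes that had a promoter peak in NSC and none in NSC Bmi1Over, *Efnb1* had a log2 fold change of 0.44 and *Efna3* one of -0.059. Of the receptors, 3 EphA genes (*Epha7*, *Epha8* and *Epha10*) and 1 EphB gene (*Ephb2*) had a promoter peak in NSC (8.86% of protein-coding genes), and *Epha7* and *Epha8* had one in NSC Bmi1Over (4.39%).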

How the data were processed

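RNASeq covered 2 NSC and 2 NSC Bmi1Over cultures, and H3K27me3 peaks came from 1 ChIPSeq library of each genotype. Per the study's methods, adaptors were removed with Trim Galore. Mapping to mm10 used STAR for RNASeq and Bowtie2 2.3.4 for ChIPSeq. The authors deposited raw counts of reads per gene, here without the biotype filtering of their analysis. After setting aside the weaker of 2 replicates per genotype, the authors called broad peaks with MACS2 on the 1 that was kept, and the deposited lists give the fold enrichment over background and −log10 p and q values, without read depth.

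Of the 50686 identifiers, 50376 matched GENCODE vM21 (GRCm38). Unstranded counts passed filterByExpr and TMM and were fitted in edgeR 4.0.16 (R 4.3.3; quasi-likelihood F-test, no replicate term). DESeq2 1.42.0 was an alternative. SE is the size of the log2 fold change over the square root of F. Reads assigned to genes were 65.9% to 72.2% of each library, and the rest (unmapped, multi-mapped, unassigned, ambiguous) were left out. On simulated counts for this comparison (15270 genes), 75% of 2-fold and 96% of 4-fold changes were called. The p-values measure the spread between 2 cultures per group, or within the remaining pair where 1 library is left out. Promoters reached 5 kb to either side of each TSS, and 1 bp of overlap sufficed.

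The ligands and gene lists were chosen with earlier results of these data known. Named were all ligands and *Bmi1*, the genes called in each list, the 3 most abundant receptors per class, and the protein-coding gene of nearest pattern for each ligand, except that a few items are not reported here. Other named genes were chosen after their values were seen. A pair of alternatives was added after seeing the data, a fit of protein-coding genes alone and levels over exons shared with no other gene. The other alternatives changed the test, scaling, filter, counting column, replicate block, libraries, promoter window, peak limits or transcript length.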

Additional observations from a re-analysis of the deposited data

How the results depend on the processing

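Against the 334 genes called, DESeq2 called 1426, library size alone 537, no filter on low counts 2356 and the replicate block 3459, and leaving out 1 library gave 176 to 2546. For the ligands, of which 0 were called, these counts were 1 with DESeq2, 1 with library size alone, 3 with no filter and 5 with the replicate block, and 0 to 4 with 1 library left out. For the receptors, of which 2 were called, they were 6 with no filter, 6 with the replicate block and 2 to 7 with 1 library left out. Of the reverse signalling genes, DESeq2 called 3, no filter 5, the replicate block 6 and the fits without 1 library 0 to 5. Of the forward signalling genes, no filter called 1, the replicate block 5 and the fits without 1 library 0 to 1. The cause was not tested. Among the fits without 1 library, the lowest count of genes came without NSC replicate 1 and the highest without NSC Bmi1Over replicate 1. Same-numbered libraries deviated from their group means with a correlation of 0.17 over genes, but 2 such pairs are too few to treat the numbers as pairs. *Efnb2* passed the threshold with a log2 fold change of 0.89 in DESeq2, 0.75 with library size alone (adjusted p = 0.0481 from edgeR), 0.88 with no filter and 0.91 with the replicate block, and ranged from 0.64 to 1.21 with 1 library left out. *Efna4* passed at 0.66 with no filter and 0.68 with the replicate block, and *Efna5* at 1.15 and 1.16, with 1.01 to 1.28 when 1 library was left out. *Efnb1* passed at 0.44 and *Efnb3* at 0.44 with the replicate block, and they ranged from 0.28 to 0.60 and from 0.13 to 0.73 with 1 library left out. *Efna3* changed sign at 0.065 with the stranded columns summed and ranged from -0.14 to 0.011 with 1 library left out. *Efna1* and *Efna2* kept their sign and missed the threshold in all 12 alternatives. Of the ligands, 1 had an NSC promoter peak and 1 an NSC peak inside the gene under each of the 3 peak limits, and 0 had either in NSC Bmi1Over at 1000 bp or more. The mean *Efnb2* share of the summed level was 31.5%, and 38.9% per longest transcript. Depth limits *Efna1* and *Efna5* most, with 31 reads each in NSC replicate 2, and the ChIPSeq comparison rests on 1 library of each genotype.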
